A study of Rattus norvegicus with 4 samples.

Results

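The genes described here build and fold the proteins that enter the endoplasmic reticulum (ER) of the rat liver cell. They were chosen by symbol from a list of 38 genes of the translocon, signal peptidase, oligosaccharyltransferase, ER chaperones, disulfide isomerases and ER-associated degradation. The count table has rows for 37 of them among its 32545 genes, and Sec61g, the smallest translocon subunit, was not analysed here. All 37 passed the filter on low counts, as did 4986 genes in all.

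Liver RNA was sequenced from rats under sleep restriction added to forced activity (2 libraries, called sleep restriction 1 and 2) and from rats under forced activity alone (2 libraries, forced activity 1 and 2). Forced activity is therefore shared by every library, and the comparison asks what restricted sleep adds to it. Strain, sex, age, duration and the apparatus are not given in the sources used here, nor is it said that each library is a separate animal, so p-values measure only the spread between these libraries, which may be technical. The tabulated counts summed to 515682.4 and 520275.6 in sleep restriction 1 and 2, and to 508202.6 and 520204.5 in forced activity 1 and 2. Despite these even totals, 14105 and 10952 genes were above 0 in sleep restriction 1 and 2, against 14008 and 11943 in forced activity 1 and 2. Of the values above 0, 99.99% were whole in sleep restriction 2, against 7.87% in sleep restriction 1. In forced activity 1 and 2 it was 8.01% and 9.12%. Fractional values below 1 also count as above 0, so the number for sleep restriction 2 is not directly comparable with the others. Differences within the libraries numbered 1 and within those numbered 2 are given throughout. Liver identity was plain in every library, since the plasma protein gene Alb made up 12.8% and 13.6% of counts under sleep restriction and 11.6% and 13.6% under forced activity, and the 7 hepatocyte marker genes were all tested.

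Proteins bound for secretion enter the ER through the Sec61 channel, lose their signal peptide to signal peptidase and receive their first glycans from oligosaccharyltransferase. Chaperones and disulfide isomerases then fold them, and what fails to fold is taken back out and degraded. Hepatocytes export most of the plasma proteins and keep this machinery at a high level. When unfolded proteins build up, the unfolded protein response raises many chaperone genes through the transcription factors ATF6 and XBP1. The translocation genes were set against the chaperone genes by choice of list. Whether translocation genes also respond to ER stress was not tested here. In rodent brain, Hspa5 is a well known transcript of prolonged wakefulness, which makes its level in liver a natural first reading.

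Promoter letters were searched for elements known from stress-induced genes. RefSeq promoter windows (build GRCr8, 250 bases before to 50 after an annotated gene start) matched 34 of the 38 symbols. Sec61a1, Manf, Pdia3 and Pdia6 had no entry. Both strands were searched for the ER stress response element, ERSE, which is CCAAT and CCACG with 9 bases of any kind between them, and for ERSE-II, which is ATTGG and CCACG with any 1 base between them. The pair did not overlap each other anywhere. Of 17 promoters of folding and degradation genes 10 held at least 1 of these motifs (58.8%), and of 17 promoters of translocation and glycosylation genes 0 did, while over all 27457 genes with a window 38 did (0.138%). A further element bound by XBP1, TGACGTGG, which overlapped either of the others at 1 place, stood in 1 member promoter, that of Hyou1, and in 187 of all genes (0.681%). A match is a description of letters, not evidence of binding. The elements are known from stress-induced genes and the list includes such genes, so these shares are not independent of the choice of genes. The 7 other folding and degradation promoters, among them those of the stress-induced Sdf2l1 and Dnajb9, held neither. The 12 matches are shown because they are the sites behind this count, written 5′ to 3′ in the motif's own direction, with the fixed letters in capitals and with or against the direction of the gene.
Hspa5 (ERSE, with the gene): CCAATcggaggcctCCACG
Hsp90b1 (ERSE, with the gene): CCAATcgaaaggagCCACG
Hsp90b1 (ERSE, against the gene): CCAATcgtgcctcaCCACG
Hyou1 (ERSE-II, against the gene): ATTGGcCCACG
Hyou1 (ERSE-II, against the gene): ATTGGgCCACG
Dnajb11 (ERSE-II, with the gene): ATTGGcCCACG
Dnajc3 (ERSE, with the gene): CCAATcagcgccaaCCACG
Creld2 (ERSE, against the gene): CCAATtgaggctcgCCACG
Calr (ERSE, against the gene): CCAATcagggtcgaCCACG
Canx (ERSE, with the gene): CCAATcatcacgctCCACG
Xbp1 (ERSE, with the gene): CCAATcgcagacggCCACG
Herpud1 (ERSE-II, with the gene): ATTGGgCCACG

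Hsp90b1 and Hyou1 carry a pair of matches each, and the ERSE-II sites of Hyou1 are the same letters as those of Dnajb11 and Herpud1. The matches began between positions -232 and -10 from the gene start, and in Hspa5 the element lay at -43 to -25. The whole window of Hspa5, the inducible chaperone against which the others are usually read, is chr3:38452766-38453065 on the plus strand of GRCr8, with the ERSE in capitals. That of Dad1, the member with the smallest p-value below, is chr15:31667110-31667409 on the minus strand and holds no match.
Hspa5: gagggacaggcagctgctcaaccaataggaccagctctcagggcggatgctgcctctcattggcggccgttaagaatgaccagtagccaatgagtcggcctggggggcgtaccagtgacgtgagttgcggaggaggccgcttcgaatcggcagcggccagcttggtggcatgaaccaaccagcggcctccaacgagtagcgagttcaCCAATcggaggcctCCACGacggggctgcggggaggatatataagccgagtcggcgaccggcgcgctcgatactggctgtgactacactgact
Dad1: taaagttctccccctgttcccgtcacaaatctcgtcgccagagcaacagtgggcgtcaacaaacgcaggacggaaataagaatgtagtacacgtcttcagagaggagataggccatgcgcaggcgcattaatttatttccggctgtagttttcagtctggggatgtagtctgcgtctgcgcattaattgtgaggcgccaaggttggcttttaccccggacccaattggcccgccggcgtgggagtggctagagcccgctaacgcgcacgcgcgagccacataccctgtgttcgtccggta

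No gene of the machinery passed the threshold between the groups. Levels are normalised read counts (CPM), the estimated counts scaled by TMM factors and given per 1000000 counts of the genes that passed the filter. A log2 change is positive where sleep restriction is higher. In edgeR's quasi-likelihood test 0 of 37 members had an adjusted p under 0.05, where 0.0201% of all genes tested did, and the smallest adjusted p of a member was 0.978. At an unadjusted p under 0.05 there were 2 members, Dad1 and Sdf2l1, both lower, where 1.34% of all genes tested were lower, 2.91% higher and 4.25% either at that level. DESeq2 and limma-voom also called 0 members, with 0 and 2 at an unadjusted p under 0.05. The standard error of a member's log2 change had a median of 0.23, and changes as large as the -0.71 of Sdf2l1 did not pass the adjustment with these libraries.

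Although no single gene passed, most members had lower values under sleep restriction. The log2 change was negative for 28 of 37 members, with a median of -0.14, where 47.8% of all genes tested were negative and the median was 0.00. The 2 sleep restriction libraries both lay below the 2 forced activity libraries for 11 members, against 15.3% of all genes tested. For 0 members did they both lie above, against 17.2% of all genes tested. Negative in both pairs of libraries were 20 members (27.4% of all genes tested), and positive in both were Dnajb9 and Edem1 (28.7% of all genes tested).

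This lean came mainly from sleep restriction 1. Within the libraries numbered 1, 35 of 37 members were lower under sleep restriction, with a median log2 difference of -0.30. Within those numbered 2, 20 were lower and 17 higher, with a median of -0.01. Of all genes tested, 49.4% and 49.3% were lower in these pairs. Sleep restriction 1 held the lowest value of the 4 libraries for 23 members (62.2%), where it did so for 18.9% of all genes tested. Forced activity 1 held the highest value for 16 members (43.2%), where it did so for 22.7% of all genes tested. Without sleep restriction 1 the median change of the members was 0.01 and 17 were negative, and without sleep restriction 2 it was -0.36 and 34 were negative. Without forced activity 1 or 2 it was -0.17 or -0.12.

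**Figure D1:**
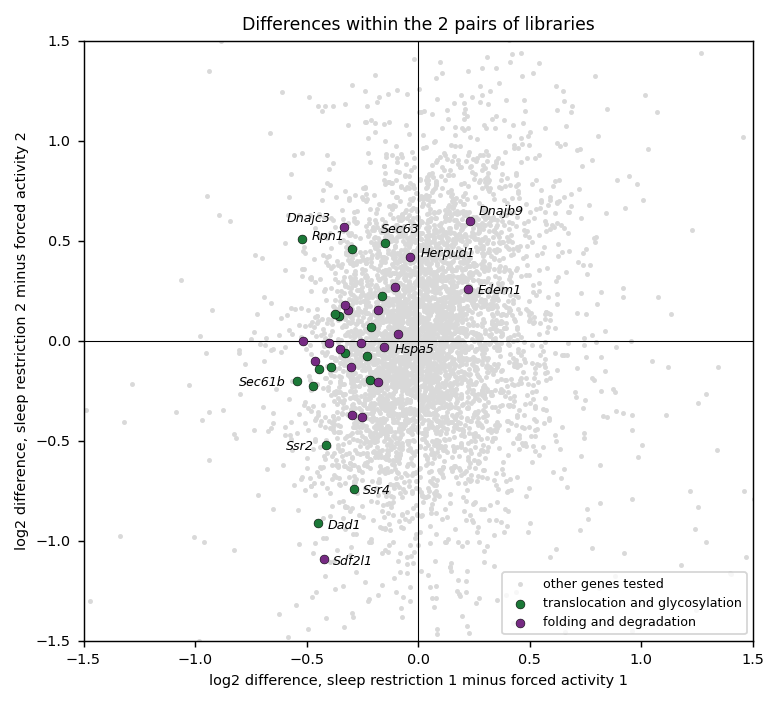
Each point is a gene: the horizontal axis is its log2 difference between sleep restriction 1 and forced activity 1, the vertical axis that between sleep restriction 2 and forced activity 2, with translocation and glycosylation genes in green, folding and degradation genes in purple and the other genes tested in grey (74 genes beyond the drawn range of 1.5 are not shown). All but Dnajb9 and Edem1 lie left of 0, while 20 lie below 0 and 17 above it on the vertical axis.

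As a share of each library, the 37 genes made up 0.971% and 1.17% of the counts in sleep restriction 1 and 2, against 1.14% and 1.22% in forced activity 1 and 2. Markers of other liver cells differed between the same libraries. The 9 endothelial markers found, of 10 listed, summed to 525 and 287 CPM in sleep restriction 1 and 2 and to 217 and 528 CPM in forced activity 1 and 2. The 8 macrophage markers summed to 626 and 431 CPM in the sleep restriction libraries and to 366 and 512 CPM in the forced activity libraries. Both lists were thus higher in sleep restriction 1 than in forced activity 1, and lower in sleep restriction 2 than in forced activity 2. Stellate markers did the same, with 728 and 545 CPM in the sleep restriction libraries and 661 and 579 CPM in the forced activity libraries. So did erythroid markers, with 564 and 354 CPM against 411 and 897 CPM in the same libraries. Cholangiocyte and pancreas acinar markers did not. Summed hepatocyte markers ran from 175015 to 182794 CPM under sleep restriction and from 166582 to 177066 CPM under forced activity. Of 10 listed genes of plasma cells and B cells, secretory cells that are themselves rich in ER, 9 were found, and they summed to 76.7 and 97.7 CPM under sleep restriction and to 206 and 209 CPM under forced activity, nearly all of it Igkc and Ighm. Of the markers in these lists, only the acinar Cpa1 was at 0 in every library. The part of these cells in the results was not tested, and in bulk tissue fewer cells of a type and less RNA per cell cannot be told apart.

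Set against each other, translocation and glycosylation genes and folding and degradation genes differed little. The 17 translocation and glycosylation genes had a median log2 change of -0.19, and 13 were negative. The 20 folding and degradation genes had a median of -0.11, and 15 were negative. The difference of these medians was 0.08, and it was -0.03 without forced activity 1 and 0.13 without forced activity 2, so its sign rested on the libraries included. Summed folding and degradation genes were 3.60 and 3.78 times the summed translocation and glycosylation genes in sleep restriction 1 and 2, and 3.45 and 3.75 times in forced activity 1 and 2. CPM is not scaled by gene length, so this ratio is read only between libraries. It differed more between the replicates of a group than between the groups, and with 2 libraries against 2 an exact permutation test cannot go below a two-sided p of 0.333.

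**Figure D2:**
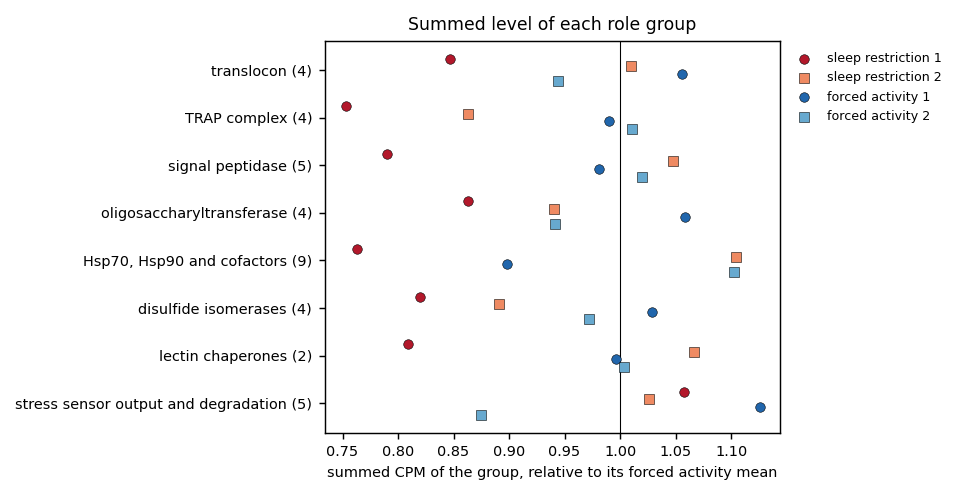
Summed CPM of each role group (number of genes in brackets) in the 4 libraries, divided by the group's mean over both forced activity libraries, on a linear axis that does not start at 0. Sleep restriction 1 (dark red) is the lowest library in every group but the last, stress sensor output and degradation, where forced activity 2 is lowest at 0.874.

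The translocon admits the growing chain. Sec61a1, the channel-forming subunit (ENSRNOG00000013743.5, chr4:120453581-120467932 in rn6), had 275 and 311 CPM in sleep restriction 1 and 2, against 363 and 341 CPM in forced activity 1 and 2. The groups did not overlap, yet the log2 change of -0.26 (SE 0.19) had a 95% interval of -0.69 to 0.17. Sec61b, a small tail-anchored subunit of the channel, had 84.9 and 83.4 CPM in sleep restriction 1 and 2, against 126 and 96.6 CPM in forced activity 1 and 2 (log2 change -0.38, SE 0.22, adjusted p = 0.978 in edgeR). Again both sleep restriction values lay under both forced activity values. Sec63, which recruits the luminal chaperone Hspa5 to the channel, went the other way with 169 and 256 CPM in sleep restriction 1 and 2, against 188 and 182 CPM in forced activity 1 and 2. Its log2 change was 0.20 (SE 0.23), and only sleep restriction 2 stood above the rest. Sec62, its partner in admitting finished chains, had a log2 change of 0.02.

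The TRAP complex (Ssr1 to Ssr4), which sits beside the channel and helps some signal peptides to engage it, was the group with the lowest summed level in the sleep restriction libraries relative to forced activity. Its 4 genes summed to 376 and 431 CPM in sleep restriction 1 and 2, against 495 and 505 CPM in forced activity 1 and 2, and all 4 had negative log2 changes. Ssr2 had 67.4 and 57.0 CPM in sleep restriction 1 and 2, against 91.1 and 83.5 CPM in forced activity 1 and 2, with a log2 change of -0.47 (SE 0.22, adjusted p = 0.978 in edgeR). Both pairs gave a similar difference for Ssr2, -0.41 and -0.52. Ssr4 had 94.8 and 50.9 CPM in sleep restriction 1 and 2, against 117 and 87.8 CPM in forced activity 1 and 2, so that the groups overlapped and sleep restriction 2 was far below the rest (log2 change -0.45, SE 0.29). Ssr3 had 130.1 and 197 CPM in the sleep restriction libraries, against 179 and 218 CPM in the forced activity libraries, and in both groups the library numbered 2 was higher (log2 change -0.27, SE 0.24). Ssr1 had the smallest change of the complex, -0.09.

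Signal peptidase cuts the signal sequence off. All 5 of its genes had their lowest value in sleep restriction 1, and the median log2 difference was -0.37 within the libraries numbered 1 and 0.07 within those numbered 2. Sec11a, a catalytic subunit, had 42.7 and 65.1 CPM in sleep restriction 1 and 2, against 60.8 and 76.9 CPM in forced activity 1 and 2 (log2 change -0.35, SE 0.26). Sec11c, the alternative catalytic subunit, had 41.1 and 69.2 CPM in sleep restriction 1 and 2, against 60.8 and 47.5 CPM in forced activity 1 and 2. The values of both catalytic subunits overlapped between the groups. The accessory subunits Spcs1, Spcs2 and Spcs3 had log2 changes of -0.14 (SE 0.26), -0.14 (SE 0.24) and -0.07 (SE 0.20).

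Oligosaccharyltransferase attaches the glycan. Dad1, a small subunit first known as a defender against cell death (ENSRNOG00000009090.5, chr15:32868087-32888095 in rn6), had 85.5 and 59.0 CPM in sleep restriction 1 and 2, against 118 and 115 CPM in forced activity 1 and 2. Its forced activity libraries were nearly equal and both sleep restriction libraries lay well below them. The means were 72.2 ± 18.7 CPM under sleep restriction and 116 ± 2.35 CPM under forced activity (SD, n = 2 each). The log2 change was -0.66 (SE 0.24, 95% interval -1.18 to -0.14), it had the smallest unadjusted p of the members in edgeR (0.0177), ranking 68 of 4986 genes, and it did not pass the adjustment (0.978). With each library left out in turn it lay between -0.94 and -0.44. Rpn2 had 306 and 291 CPM in sleep restriction 1 and 2, against 356 and 334 CPM in forced activity 1 and 2, and the 2 pairs differed by -0.22 and -0.20 (log2 change -0.21, SE 0.19). Ddost, another subunit, also had groups that did not overlap, with 119 and 128 CPM under sleep restriction and 151 and 134 CPM under forced activity (log2 change -0.19, SE 0.21). Rpn1, a subunit that holds substrates near the active site, had 277 and 381 CPM in sleep restriction 1 and 2, against 342 and 276 CPM in forced activity 1 and 2. Its values overlapped, its log2 change was 0.09 (SE 0.22), and its difference was -0.30 in the libraries numbered 1 and 0.46 in those numbered 2.

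**Figure D3:**
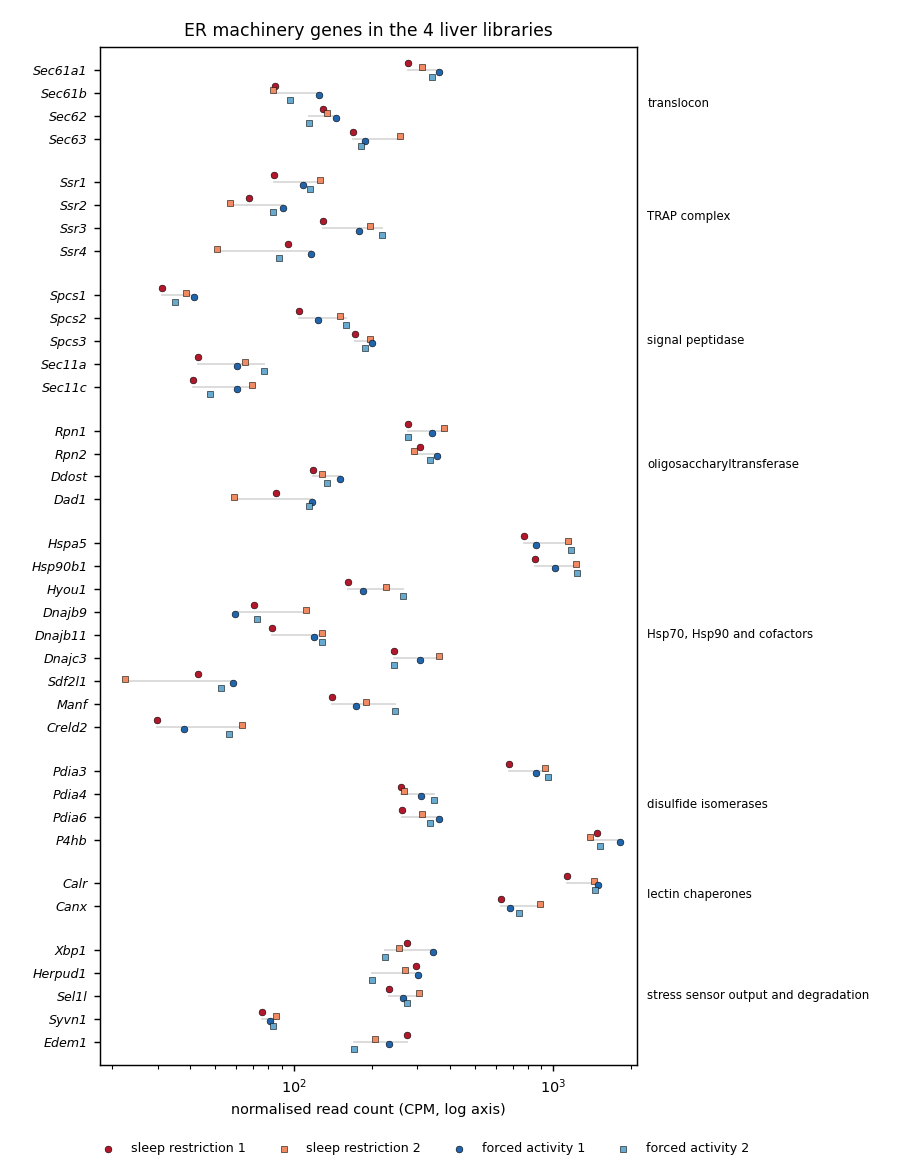
Normalised read counts (CPM, log axis) of the 37 genes in sleep restriction 1 and 2 (dark and light red) and forced activity 1 and 2 (dark and light blue), ordered by role, with a grey line from the lowest to the highest value. Dad1, Ssr2, Sec61a1 and Sdf2l1 show both red points left of both blue points, whereas for Hspa5, Hyou1 and Creld2 the libraries numbered 2 lie right of those numbered 1 in both groups.

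Hspa5 (BiP), the ER member of the Hsp70 family and the common readout of the unfolded protein response (ENSRNOG00000018294.6, chr3:13838304-13842762 in rn6), had 770.2 and 1142 CPM in sleep restriction 1 and 2, against 858 and 1169 CPM in forced activity 1 and 2. The means were 956 ± 263 CPM under sleep restriction and 1014 ± 219.8 CPM under forced activity (SD, n = 2 each). The groups overlapped and each library numbered 2 stood above each numbered 1. Its log2 change was -0.09 (SE 0.24), with a 95% interval of -0.62 to 0.45, and it turned to 0.16 without sleep restriction 1 and to 0.15 without forced activity 2. Hsp90b1 (Grp94), the ER member of the Hsp90 family, had 853 and 1221 CPM in sleep restriction 1 and 2, against 1018 and 1230 CPM in forced activity 1 and 2, the same order of libraries as Hspa5. Hyou1, a large Hsp70-related protein that exchanges nucleotide on Hspa5, had a log2 change of -0.20.

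Among the cofactors, Sdf2l1, a component of a luminal Hspa5 complex that is strongly inducible by ER stress (ENSRNOG00000001859.5, chr11:88122271-88124513 in rn6), had 42.7 and 22.4 CPM in sleep restriction 1 and 2, against 58.7 and 52.4 CPM in forced activity 1 and 2. Both sleep restriction values were lower, and sleep restriction 2 rested on 11 counts. The log2 change of -0.71 (SE 0.30, unadjusted p 0.0370 and adjusted p = 0.978 in edgeR) was the most negative among the members and lay between -1.19 and -0.36 when each library was left out. Dnajb9, a co-chaperone that is a classical target of Xbp1, had 70.4 and 111.9 CPM in sleep restriction 1 and 2, against 59.3 and 72.4 CPM in forced activity 1 and 2, the highest log2 change of the members at 0.45 (SE 0.26, 95% interval -0.13 to 1.03). Its groups overlapped, with sleep restriction 2 alone well above the rest. Manf, a secreted stress-induced factor, had 140.4 and 189 CPM in sleep restriction 1 and 2, against 174 and 246 CPM in forced activity 1 and 2 (log2 change -0.34, SE 0.24). The co-chaperones Dnajb11 and Dnajc3 and the stress-induced Creld2 had log2 changes of -0.23, 0.14 and -0.02.

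Disulfide isomerases were the group in which every member was negative in both pairs (27.4% of all genes tested). Pdia4 had 259 and 267 CPM in sleep restriction 1 and 2, against 310.0 and 348 CPM in forced activity 1 and 2, with a log2 change of -0.32 (SE 0.19, adjusted p = 0.978 in edgeR). Pdia6 had 262 and 313 CPM in sleep restriction 1 and 2, against 362 and 337 CPM in forced activity 1 and 2 (log2 change -0.28, SE 0.20). P4hb, the archetypal protein disulfide isomerase, had 1469 and 1386 CPM in sleep restriction 1 and 2, against 1811 and 1516 CPM in forced activity 1 and 2 (log2 change -0.22, SE 0.19). For these 3 genes both sleep restriction values lay below both forced activity values, against 15.3% of all genes tested. The 95% intervals of all 3 changes included 0. Pdia3, which works on glycoproteins together with the lectin chaperones, had a log2 change of -0.18 and overlapping groups. The lectins had log2 changes of opposite sign, each smaller than its SE, and both were lowest in sleep restriction 1. Calreticulin (Calr) had 1130.2 and 1433 CPM in sleep restriction 1 and 2, against 1491 and 1446 CPM in forced activity 1 and 2, and its membrane-bound relative calnexin (Canx) had 630.1 and 889 CPM in sleep restriction 1 and 2, against 678 and 739 CPM in forced activity 1 and 2. Only sleep restriction 1 was low for Calr, and only sleep restriction 2 was high for Canx, with log2 changes of -0.20 (SE 0.20) and 0.10 (SE 0.21).

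Genes of the stress output and of degradation had a median log2 change of -0.00 over 5 genes, with the pairs on opposite sides. Within the libraries numbered 1, 4 of 5 were lower under sleep restriction (median -0.09), and within those numbered 2 all 5 were higher (median 0.18). Xbp1, the transcription factor whose spliced form drives much of the response, had 274 and 254 CPM in sleep restriction 1 and 2, against 345 and 224 CPM in forced activity 1 and 2 (log2 change -0.10, SE 0.24). Gene counts do not separate its spliced from its unspliced form. Herpud1, an ER membrane protein of the degradation complex, had 295 and 269 CPM in sleep restriction 1 and 2, against 303 and 200 CPM in forced activity 1 and 2, a log2 change of 0.16 (SE 0.23) that was -0.04 and 0.42 in the pairs. Edem1, a lectin that hands misfolded glycoproteins over for degradation, had 274 and 206 CPM in sleep restriction 1 and 2, against 234 and 171 CPM in forced activity 1 and 2 (log2 change 0.25, SE 0.23). It was higher under sleep restriction within each pair, but its libraries numbered 2 were lower in both groups and the groups overlapped. Sel1l and Syvn1, the adaptor and ubiquitin ligase of the central degradation complex, had log2 changes of -0.00 and -0.03.

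The libraries of a group also differed from each other, as described here by counts with no test. In the Hsp70, Hsp90 and cofactor group, 7 of 9 genes were higher in the library numbered 2 in both groups, against 29.1% of all genes tested. For Hspa5 the log2 difference of library 2 over library 1 was 0.57 under sleep restriction and 0.44 under forced activity, for Hyou1 it was 0.48 and 0.51, and for Creld2 0.99 and 0.52. The exceptions were Sdf2l1, at -0.82 and -0.15, and Dnajc3, at 0.56 and -0.34. In the stress output and degradation group, Xbp1, Herpud1 and Edem1 were lower in the library numbered 2 in both groups, against 30.6% of all genes tested, with -0.11 and -0.61 for Xbp1, -0.13 and -0.59 for Herpud1 and -0.41 and -0.44 for Edem1. The other members of that group, Sel1l and Syvn1, were higher in the library numbered 2 in both groups, by 0.38 and 0.05 for Sel1l and 0.16 and 0.04 for Syvn1. The TRAP complex was split, with Ssr1 and Ssr3 higher and Ssr2 and Ssr4 lower in the library numbered 2 in both groups. For Hspa5, Hyou1 and Creld2 the difference between libraries of a group was larger than the change between the groups, which was -0.09 for Hspa5, -0.20 for Hyou1 and -0.02 for Creld2. The number of genes above 0 was also lower in the library numbered 2 of each group, though that of sleep restriction 2 is not directly comparable. Its part in these differences was not tested.

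**Figure D4:**
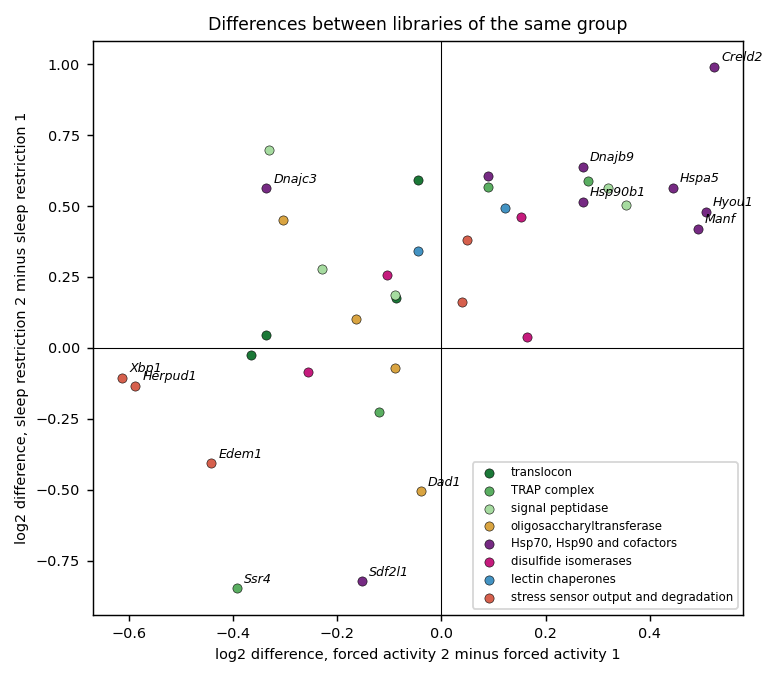
Log2 difference of library 2 over library 1 under sleep restriction (vertical axis) against the same difference under forced activity (horizontal axis), 1 point a gene, coloured by role. Hspa5, Hsp90b1, Hyou1, Manf and Creld2 lie at the upper right and Xbp1, Herpud1 and Edem1 at the lower left.

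Further properties of the genes were set beside the changes. The first is the genomic span, which the choice of genes did not use. With all genes tested put into 4 bins of span of nearly equal size, 15 members fell into the shortest bin (up to 9.42 kb), and 14 of them were negative, with a median of -0.19 against -0.09 for all genes of that bin. In the next bin (up to 22.0 kb) 9 of 12 were negative, with a median of -0.21 against -0.02 for all genes. In the one after it (up to 48.8 kb) 5 of 9 were, with a median of -0.00 against 0.04 for all genes. Sec63 alone was in the longest bin. Across the 37 genes the Spearman correlation of change and span was 0.33, and across all 4986 genes, which share the same 4 libraries, it was 0.27. Members spanned a median of 13.97 kb, against 22.0 kb over all genes tested.

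**Figure D5:**
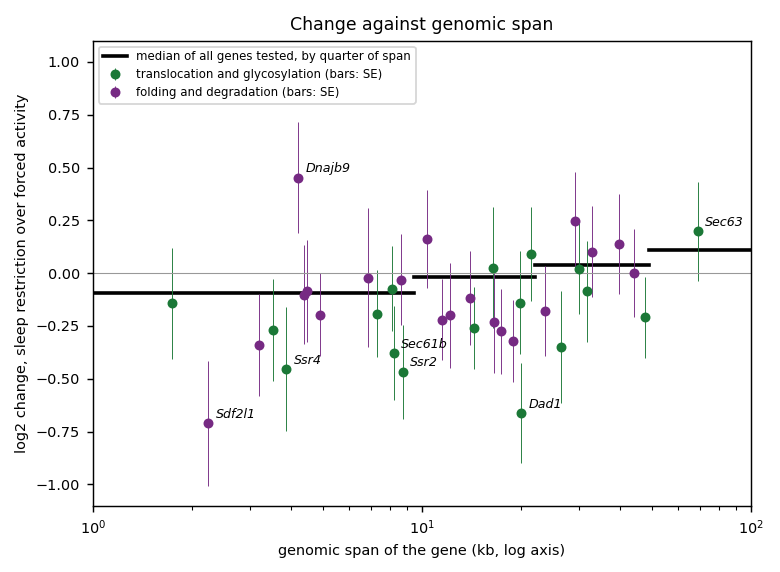
Log2 change of each member (points, with the standard error as bars) against its genomic span in kb on a log axis, with the median of all genes tested in each of 4 span bins as black lines. The short genes Sdf2l1, Ssr4, Ssr2 and Sec61b lie below their line and Dnajb9 above it, and Sec63, with the longest span, lies at 0.20.

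The second property is the promoter element. The 10 members with an ERSE or ERSE-II had a median log2 change of -0.09 and 7 of them were negative, and the 7 folding and degradation genes whose window held neither had a median of -0.03 with 5 negative. The 16 translocation and glycosylation genes with a window, apart from Sec61g, had a median of -0.17 with 12 negative. All 10 with an element were lower in sleep restriction 1 than in forced activity 1, and 4 of the 10 were lower in sleep restriction 2 than in forced activity 2. The 16 translocation and glycosylation genes, which held no element, were likewise all lower in the first of these pairs, and 9 of the 16 in the second. The members with the most extreme changes, Dad1, Sdf2l1 and Dnajb9, held neither motif in this window.

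Other genes of the same pathway, taken from lists outside the members, were read from the same fit. None was called, where 0.0201% of all genes tested were, so this count says little about the lists. Of 9 tested genes for the signal recognition particle, its receptor and other entry factors 6 were negative, with a median of -0.04, and 0 were called. Srp68, a protein of the signal recognition particle, had -0.36 and Get4, of the tail-anchor pathway, -0.37. Of 6 further oligosaccharyltransferase subunits 3 were negative, and the catalytic subunits Stt3a and Stt3b had -0.15 and 0.48. Stt3b was at 89.6 and 116 CPM in sleep restriction 1 and 2, against 98.7 and 46.9 CPM in forced activity 1 and 2, so that its change rested on the low forced activity 2. Of 11 glycan assembly and trimming genes 6 were negative, with Man1a2, a mannosidase, at 0.59 and Dpagt1, which starts the lipid-linked glycan, at -0.46.

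Of 21 further chaperones and oxidases 15 were negative, with a median of -0.13, and the median was -0.13 within the libraries numbered 1 and -0.10 within those numbered 2. Fkbp2, a luminal prolyl isomerase, had 74.9 and 44.8 CPM in sleep restriction 1 and 2, against 91.8 and 105 CPM in forced activity 1 and 2, a log2 change of -0.67 (SE 0.26, adjusted p = 0.978 in edgeR). Ppib, the prolyl isomerase cyclophilin B, had 191 and 208 CPM in sleep restriction 1 and 2, against 264 and 274 CPM in forced activity 1 and 2, with -0.43. Both genes were named for the smallest unadjusted p of their list. Their groups did not overlap, and 15.3% of all genes tested were likewise lower without overlap. Of 20 further degradation genes 11 were negative. Edem3, a relative of Edem1, had a log2 change of 0.96 (SE 0.36). It had 32.2 and 26.5 CPM under sleep restriction and 19.1 and 8.76 CPM under forced activity. These values are low, as the lowest mean of any gene tested was 13.5 CPM. Ube2g2, a ubiquitin-conjugating enzyme, had -0.58. The stress sensors and the PERK branch split evenly, 5 negative and 5 positive, with a median of 0.03. Atf6, the sensor that becomes a transcription factor, had 71.2 and 57.0 CPM in sleep restriction 1 and 2, against 46.4 and 43.4 CPM in forced activity 1 and 2, with 0.48 (SE 0.24), and Ern1, the kinase that splices Xbp1, had 0.37. Both sleep restriction values of Atf6, named by the same rule, were above both forced activity values, as for 17.2% of all genes tested. In edgeR its adjusted p was 0.978. No gene of these 6 lists was called, where 0.0201% of all genes tested were.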

How the data were processed

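Liver RNA from 4 rat libraries was compared, 2 of sleep restriction with forced activity and 2 of forced activity alone, grouped by their titles. TRIzol extraction and Illumina libraries of purified messenger RNA are stated per the labels' protocols. The submitters' processing notes list CASAVA, STAR 2.4.1d and rn6 without saying what each did, and name no program for counting. The authors deposited estimated counts per Ensembl gene, all multiples of 0.1 with nearly equal totals, as a mean of 10 draws of reads down to the shallowest library would give. This reading rests on the values and on words in the table's name, where sense strand is also stated. In sleep restriction 2 nearly all values above 0 are whole. Averaging lowers counting noise in the other libraries, which the test does not model.

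The rounded counts went into edgeR 4.0.16 (R 4.3.3) with filterByExpr with a minimum count of 10, TMM factors, a robust quasi-likelihood test and Benjamini-Hochberg adjustment across the 4986 genes that passed, called under 0.05. The test was tested on simulated data. Log2 changes are shrunken by a prior count of 2, their SE is the change over the square root of F, and errors on CPM come from 2 libraries. DESeq2 1.42.0, limma-voom (limma 3.58.1), other scalings and filters, a replicate block and leaving out each library were tried. The members and lists were chosen with earlier results of these data known. Given with their log2 change and SE were Hspa5, Sec61a1, Rpn1, Xbp1 and, by smallest unadjusted p, 3 members of each role group (both lectins), and 2 genes of each other list were named by the same order. The remaining members are described by their CPM values or their log2 change, and Spcs3 also by its SE. Promoter windows are from RefSeq (GRCr8). Gene coordinates are those of the deposited table.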

Additional observations from a re-analysis of the deposited data

How the results depend on the processing

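Of 25 named members under 12 alternatives, including the older edgeR quasi-likelihood chosen after seeing the data, none passed the threshold, and every sign held except with a library left out. There Hspa5 ranged from -0.40 to 0.16, Spcs2 from -0.41 to 0.080, Sec63 from -0.13 to 0.46, Rpn1 from -0.16 to 0.29, Canx from -0.17 to 0.32, Xbp1 from -0.39 to 0.24 and Herpud1 from -0.11 to 0.48, while 18 genes kept their sign. The count of genes called over the whole table was 1, and 0 without a gene filter, 2 with DESeq2, 0 with limma-voom, 11 with the replicate block and 0 to 0 with a library left out. Members called stayed at 0 in every alternative. Members at an unadjusted p under 0.05 were 2, and 0 with DESeq2, 5 with the replicate block and 0 to 4 with a library left out. The median change of all members ranged from -0.36 to 0.012 and that of folding and degradation genes from -0.36 to 0.029 with a library left out. The difference of the medians was 0.08, and 0.086 with DESeq2, 0.079 with limma-voom, 0.077 with the replicate block and -0.032 to 0.13 with a library left out. Nothing in the labels ties equal replicate numbers to a shared animal or day. The correlation of the deviations across genes was 0.21, and with 2 pairs they were treated as unpaired. Where 1 library was left alone in a group, its spread was taken from the other group. The cause of these shifts was not tested. With 2 libraries a group, the spread between libraries limits the precision.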

Other observations

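Genes outside the list also carry the stress element. Of the 38 genes with an ERSE or ERSE-II in a promoter window, 15 had a tested row and 5 of these were not members: Ggct, Hnrnpa3, Nucb1, Pan2 and Rcl1, named because the motif search returned them and not for their values. Nucb1, a calcium-binding protein of the Golgi, had 218 and 151 CPM in sleep restriction 1 and 2, against 207 and 195 CPM in forced activity 1 and 2, and overlapping groups. Ggct, an enzyme of glutathione breakdown, had 26.9 and 40.7 CPM in sleep restriction 1 and 2, against 40.3 and 67.8 CPM in forced activity 1 and 2, a log2 change of -0.64 (SE 0.31, adjusted p = 0.978 in edgeR). Over the 15 tested genes 11 were negative, with a median of -0.10 and a range of -0.64 to 0.16. Within the libraries numbered 1 the 5 genes outside the list had a median of 0.07, against -0.28 for the 10 members with an element, and within those numbered 2 they had -0.36 against 0.08. Derl3, a degradation gene whose promoter holds an element, was listed at 0 in all 4 libraries.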
